A study of Canis lupus familiaris with 8 samples.

Results

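This account covers 49 genes that copy the genome or prepare cells to do so, out of 37952 genes in the deposited count table. They were taken by symbol from a fixed list of replication and S-phase genes. All 49 were in the table, and all 49 passed the filter on low counts that left 14571 genes for testing. Messenger RNA was sequenced from MDCK GII cells, an established dog kidney epithelial line grown as a monolayer on a collagen-coated elastic silicone membrane. The stretch group was held at 18% static strain, applied equally in both in-plane directions, for 2 hours before lysis, and the control group was cultured in the same kind of device without strain. Each group had 4 wells, numbered 1 to 4 in the titles, and the labels call them technical replicates of 1 line. P-values therefore measure the spread between wells, which may be technical.

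DNA replication starts at origins marked by the origin recognition complex (ORC). ORC, CDC6 and CDT1 load the ring-shaped MCM helicase in G1 phase, which is called licensing, and the kinases CDC7-DBF4 and CDK2, with CDC45 and the GINS complex, turn the loaded ring into an active helicase in S phase. Polymerases alpha, delta and epsilon then copy the strands behind it with the sliding clamp PCNA, and E2F transcription factors switch on many of these genes as cells pass from G1 into S. Transcripts of many such genes are known to peak around the start of S phase. In bulk RNA, fewer cells in a phase and less RNA per cell cannot be told apart.

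Total counts ranged from 27047358 to 32478887 per well, and single replication genes had between 145 and 35960 counts in a well. Levels are given as TMM-normalised CPM, that is counts scaled to a common library total. The cells carried the epithelial markers fixed for the line, whose 10 genes summed to between 5953 and 6729 CPM per well, although CDH16, a kidney-specific cadherin, was at only 1.27 ± 0.421 CPM in control wells (SD, n = 4). The 7 fibroblast markers summed to between 1.80 and 4.22 CPM, the 4 endothelial markers to between 0.790 and 1.73 CPM and the 5 leukocyte markers to between 5.73 and 7.31 CPM. COL1A2, COL3A1, DCN, LUM, PTPRC and CD3E had 0 counts in all 8 wells.

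All 49 genes had transcripts in unstrained cells. Scaled by exon length, RRM2, the regulated subunit of the ribonucleotide reductase that makes deoxynucleotides, stood highest at 266 ± 11.3 CPM per kilobase in control wells (mean ± SD, n = 4). It was followed by the helicase subunit MCM6 at 121 ± 9.38 and by thymidine kinase TK1 at 115 ± 14.3, whose levels per kilobase differed by less than the SD of either. The lowest length-scaled levels belonged to the transcription factor E2F2 at 1.12 ± 0.262, the GINS subunit GINS2 at 1.42 ± 0.143 and the nuclease-helicase DNA2 at 6.19 ± 1.47 CPM per kilobase. The value of GINS2 depends on a gene model of 11417 exonic bases that overlaps GSE1 on the opposite strand.

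The 6 MCM proteins form a ring with 1 copy of each, but their transcripts did not stand at one level. Per kilobase, control wells held 121 ± 9.38 CPM of MCM6, 91.0 ± 8.93 of MCM4 and 69.3 ± 3.99 of MCM7. MCM5 followed at 60.1 ± 7.71, MCM3 at 49.9 ± 4.42 and MCM2 at 48.0 ± 5.38 CPM per kilobase. In this order the neighbours MCM3 and MCM2 differed by less than the SD of either, and each of the other neighbours by more. Exons of MCM7 overlap AP4M1 on the opposite strand.

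The first comparison asked whether 2 hours of stretch changed the replication transcripts. With edgeR (quasi-likelihood test, Benjamini-Hochberg adjustment over 14571 genes, threshold 0.05), 0 of the 49 genes passed without a block and 0 with the replicate number as a block, and DESeq2 and limma-voom passed 0 as well. Over all tested genes, edgeR passed 0 (0%) without the block and 0.7% with it. At an unadjusted p below the same threshold, 2 of the 49 were lower without the block, DBF4 and UHRF1, and 0 were higher, where 1.76% of all genes were lower and 2.22% higher. The changes were small and mostly downward: 43 of the 49 genes were lower and 6 higher after stretch, with a median log2 change of -0.054 and a range from -0.21 to 0.17, where 51.8% of all tested genes were lower and their median was -0.0032. The median moved with single wells. It was -0.011, -0.026, -0.082 or -0.098 without control replicate 1, 2, 3 or 4, and -0.13, -0.0099 or -0.020 without stretch replicate 1, 3 or 4.

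Same-numbered wells deviated together from their group means, with correlations across all genes of 0.108 to 0.328, so the fit with the block is given beside the other. Only 1 of the 4 control wells correlated best with the stretch well of its own number. With the block, 12 of the 49 genes were lower and 2 higher at that unadjusted threshold (edgeR), against 3.9% and 4.99% of all tested genes. With a block of 2 levels, replicates 1 and 2 against 3 and 4, the counts were 9 lower and 0 higher (3.6% and 4.47% of all genes), and in DESeq2 with the replicate block 5 lower and 2 higher (2.26% and 3.12%). In all 4 same-numbered pairs, 12 of the 49 were lower and 2 higher, against 7.84% and 8.45% of all genes. By pair, the median log2 change of the 49 genes was 0.0090 for replicate 1, -0.073 for replicate 2, -0.12 for replicate 3 and -0.025 for replicate 4. With the block, every one of the 49 had a 95% interval of its log2 change inside ±0.5, the widest bounds being -0.41 and 0.29. Without it, 46 of 49 did.

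**Figure D1:**
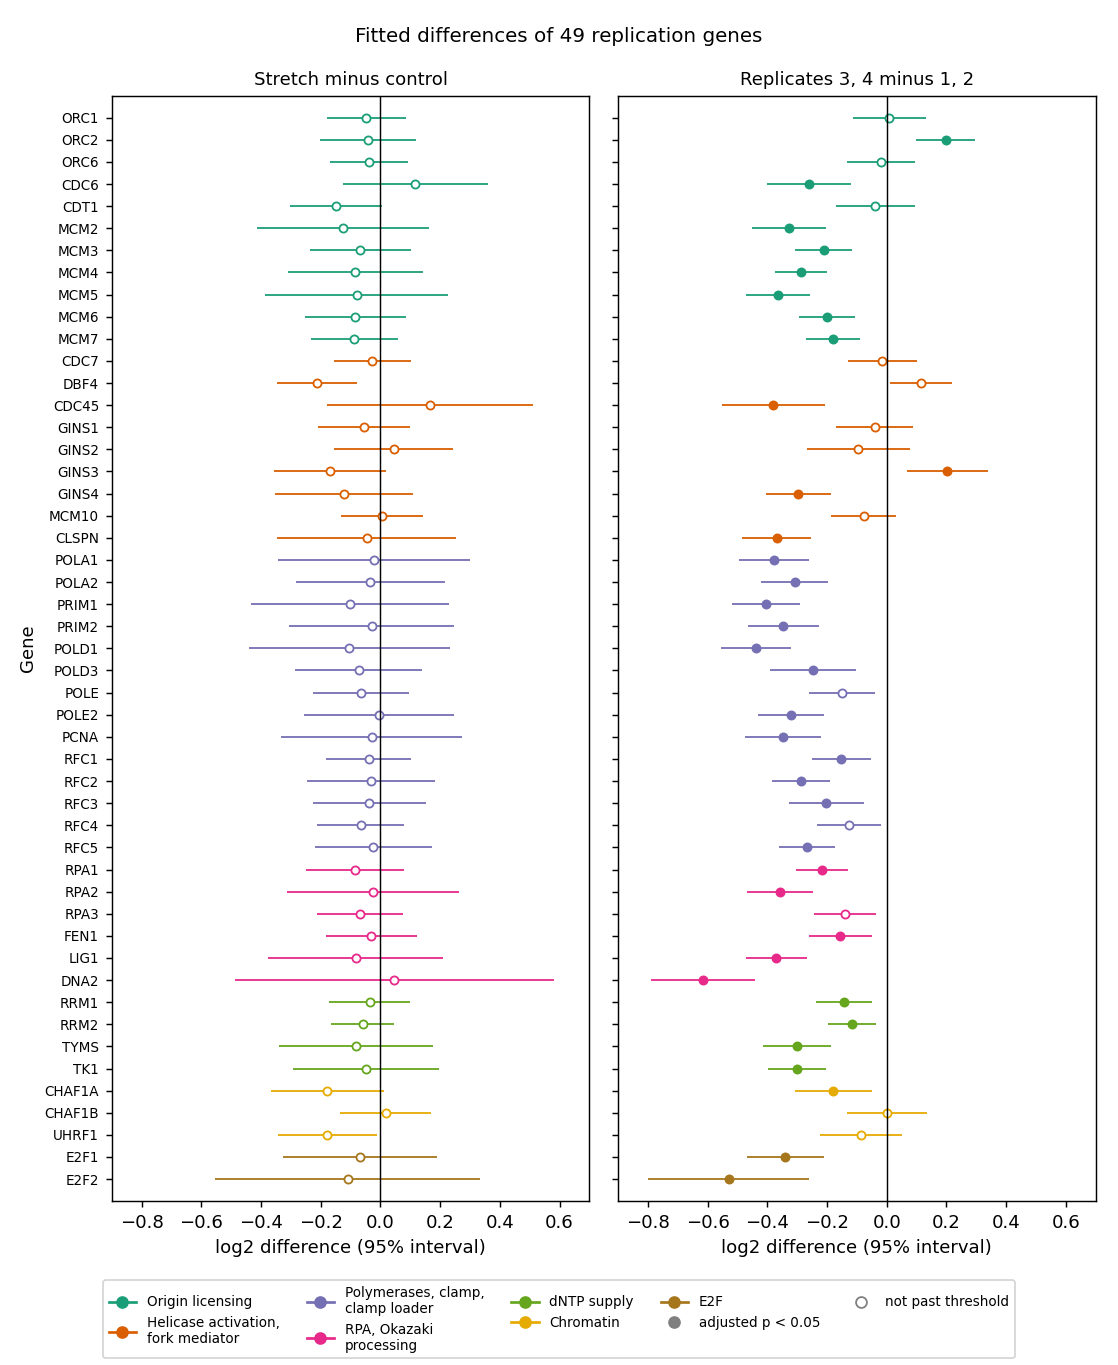
Fitted log2 differences of the 49 replication genes with 95% intervals, for stretch minus control without a block (left) and for replicates 3 and 4 minus replicates 1 and 2 with a term for stretch (right). Colours mark the role of each gene and filled points those past the threshold (edgeR, adjusted p). No point is filled on the left, and 36 are filled on the right, 34 of them below 0.

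Among the licensing genes, 10 of 11 were lower after stretch, with a median log2 change of -0.079. CDT1, the loading factor that brings MCM rings to ORC, lies on chromosome 5 (65049993 to 65054410). It had 38.2, 35.6, 40.1 and 37.7 CPM in control replicates 1 to 4 and 38.4, 33.7, 32.0 and 32.7 CPM in stretch replicates 1 to 4. Stretch replicates 2 to 4 lay below every control well, while stretch replicate 1 lay among the control wells, and the log2 change was -0.15 ± 0.072 (SE) without the block (edgeR, adjusted p = 0.999 unblocked, 0.426 when blocked). MCM7 had 200.2, 192, 178 and 179 CPM in control wells and 196, 183, 158 and 168 CPM in stretch wells. It was lower in each pair, by less than the spread between replicate numbers, with a log2 change of -0.087 ± 0.067 (SE, edgeR adjusted p = 0.486 with the block). MCM6 had 372, 344, 334 and 308 CPM in control wells and 363, 333, 282 and 304 CPM in stretch wells, with a log2 change of -0.084 ± 0.077 (SE, edgeR adjusted p = 0.536 with the block). MCM3, MCM5, MCM6 and MCM7 were lower in all 4 pairs, and MCM2 and MCM4 in 3 of 4.

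CDC6, the ATPase that closes the loading complex around DNA, had a positive change. It had 98.4, 80.8, 79.1 and 73.7 CPM in control replicates 1 to 4 and 105, 92.7, 86.9 and 75.2 CPM in stretch replicates 1 to 4, higher after stretch in all 4 pairs. The groups overlapped, the wells numbered 1 being the highest of each, and the log2 change was 0.12 ± 0.11 (SE) without the block and 0.11 ± 0.045 (SE) with it (edgeR, adjusted p = 0.417 with the block). For the ORC genes the log2 changes without the block were -0.047 ± 0.061 (SE) for ORC1, -0.041 ± 0.074 (SE) for ORC2 and -0.037 ± 0.060 (SE) for ORC6.

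DBF4, the regulatory subunit that activates the CDC7 kinase and so fires licensed origins, had the most negative stretch change of the 49. It lies on chromosome 14 (13963669 to 13999860) and had 60.0, 59.3, 67.1 and 68.1 CPM in control replicates 1 to 4 and 54.4, 53.4, 53.7 and 57.8 CPM in stretch replicates 1 to 4. Every stretch well was below every control well, a separation found downward in 1 of 49 replication genes and in 1.24% of all genes, and upward in 0 of 49 and in 1.3%. Its log2 change was -0.21 ± 0.062 (SE) without the block and -0.21 ± 0.049 (SE) with it, and it did not pass the threshold in either edgeR fit (adjusted p = 0.865 and 0.0635). Over the other settings tried, its log2 change ran from -0.27 within replicates 3 and 4 to -0.15 within replicates 1 and 2, and its adjusted p from 0.0505 in DESeq2 with the block to 1. CDC7 itself, the catalytic partner, had 39.4, 43.4, 44.3 and 42.0 CPM in control wells and 42.3, 43.3, 40.6 and 39.8 CPM in stretch wells, a log2 change of -0.027 ± 0.060 (SE).

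The other helicase activators differed in sign. CDC45, the subunit that joins MCM and GINS in the active helicase, had the most positive stretch change of the 49. It had 46.7, 49.5, 42.2 and 31.8 CPM in control replicates 1 to 4 and 57.2, 50.8, 44.7 and 38.4 CPM in stretch replicates 1 to 4, higher in all 4 pairs, with overlapping groups. Its log2 change was 0.17 ± 0.15 (SE) without the block and 0.17 ± 0.055 (SE) with it (adjusted p = 0.999 and 0.249 in edgeR). The GINS subunit GINS3 had 23.1, 23.9, 25.6 and 26.2 CPM in control wells and 19.4, 20.5, 23.9 and 24.1 CPM in stretch wells, lower in all 4 pairs, most in replicates 1 and 2, with a log2 change of -0.17 ± 0.087 (SE, edgeR adjusted p = 0.365 with the block). GINS4 had 82.8, 80.4, 64.6 and 64.1 CPM in control wells and 78.0, 67.6, 59.2 and 63.3 CPM in stretch wells, also lower in all 4 pairs, with a log2 change of -0.12 ± 0.11 (SE, edgeR adjusted p = 0.447 with the block). GINS1, GINS2, the scaffold MCM10 and the checkpoint mediator CLSPN had log2 changes between -0.054 and 0.044.

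The 14 genes of the polymerases, the clamp and the clamp loader had the smallest median change of the 7 roles after stretch. All 14 had negative log2 changes, none larger in size than that of POLD1 (-0.10), with a median of -0.036, and 0 of 14 were lower in all 4 pairs. The clamp PCNA had 107, 109, 92.6 and 79.5 CPM in control replicates 1 to 4 and 118, 96.1, 85.2 and 80.9 CPM in stretch replicates 1 to 4. The groups overlapped over nearly their whole range, and the log2 change was -0.029 ± 0.13 (SE, edgeR adjusted p = 0.999). The 3 with the smallest unadjusted p were the clamp loader subunit RFC4, the catalytic subunit POLE of polymerase epsilon and the accessory subunit POLD3 of polymerase delta. RFC4 had 89.5, 86.8, 84.6 and 83.0 CPM in control wells and 89.9, 84.5, 71.2 and 83.0 CPM in stretch wells, where stretch replicate 3 alone lay below the controls, with a log2 change of -0.066 ± 0.067 (SE). POLE had 122, 125, 119 and 115 CPM in control wells and 129, 118, 96.8 and 115 CPM in stretch wells, again with stretch replicate 3 lowest, and a log2 change of -0.065 ± 0.074 (SE). POLD3 had 23.4, 21.6, 18.7 and 19.3 CPM in control wells and 20.8, 22.1, 18.6 and 17.5 CPM in stretch wells, with overlapping groups and a log2 change of -0.073 ± 0.10 (SE). EdgeR's adjusted p for these 3, when blocked, were 0.79, 0.815 and 0.866. RFC4 and POLE overlap EIF4A2 and P2RX2 on the opposite strand.

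The replication protein A subunits, which coat single-stranded DNA, and the enzymes that finish Okazaki fragments had a median log2 change of -0.049. RPA1 had 189.9, 179, 156 and 154 CPM in control wells and 175, 165, 149 and 151 CPM in stretch wells, lower in all 4 pairs, with a log2 change of -0.084 ± 0.075 (SE, edgeR adjusted p = 0.547 with the block). RPA3 had 97.5, 89.1, 85.1 and 79.5 CPM in control wells and 88.2, 85.0, 77.4 and 84.6 CPM in stretch wells and a log2 change of -0.068 ± 0.067 (SE). LIG1, the ligase that seals the fragments, had 113, 103, 86.1 and 85.6 CPM in control wells and 109.5, 99.3, 80.2 and 76.7 CPM in stretch wells, lower in all 4 pairs, with a log2 change of -0.083 ± 0.13 (SE, edgeR adjusted p = 0.6 with the block). In each of these 3 the wells numbered 1 were the highest of their group, and the groups overlapped.

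All 4 genes of deoxynucleotide supply had small negative values, with a median log2 change of -0.054. RRM2 had 1168, 1164, 1089 and 1078 CPM in control wells and 1161, 1093, 1010.0 and 1051 CPM in stretch wells, lower in all 4 pairs, with a log2 change of -0.060 ± 0.048 (SE), the most precise of the 49. RRM1, the large subunit of the same enzyme, had 263, 256, 229.5 and 235 CPM in control wells and 266, 235, 219 and 239 CPM in stretch wells and a log2 change of -0.037 ± 0.063 (SE). TYMS, which makes thymidylate, had 142, 139, 118 and 111 CPM in control wells and 147, 119, 103 and 112 CPM in stretch wells and a log2 change of -0.081 ± 0.12 (SE). The groups overlapped in all 3, and with the block edgeR gave adjusted p of 0.65, 0.882 and 0.705.

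The 3 genes that restore chromatin behind the fork had the most negative median of the roles, -0.18. UHRF1, which recruits the maintenance DNA methyltransferase to newly copied DNA, had 82.9, 73.4, 84.4 and 72.3 CPM in control wells and 77.0, 69.8, 60.7 and 69.2 CPM in stretch wells. It was lower in all 4 pairs, most in replicate 3, with a log2 change of -0.18 ± 0.077 (SE, edgeR adjusted p = 0.999 without and 0.357 with the block). CHAF1A, the large subunit of the histone chaperone CAF-1, had 85.4, 75.8, 74.2 and 66.9 CPM in control wells and 76.9, 64.4, 59.2 and 66.6 CPM in stretch wells, lower in all 4 pairs, with a log2 change of -0.18 ± 0.087 (SE, edgeR adjusted p = 0.181 with the block). Its partner CHAF1B had 30.9, 30.2, 35.1 and 32.2 CPM in control wells and 34.0, 34.0, 31.1 and 30.8 CPM in stretch wells and a log2 change of 0.017 ± 0.070 (SE), positive within replicates 1 and 2 (0.15) and negative within replicates 3 and 4 (-0.11). That difference between the replicate sets had an adjusted p of 0.812 in edgeR's interaction test. The transcription factor E2F1 had 38.7, 35.7, 28.9 and 28.1 CPM in control wells and 36.8, 32.2, 28.2 and 28.1 CPM in stretch wells and a log2 change of -0.068 ± 0.12 (SE). E2F2 had 6.28, 8.67, 5.52 and 5.44 CPM in control wells and 8.24, 6.28, 4.97 and 4.56 CPM in stretch wells and a log2 change of -0.11 ± 0.20 (SE), from no more than 268 counts in a well, and both E2F genes overlapped between groups.

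Most of these small stretch changes moved with single wells. Of the 20 genes chosen by role, DBF4 and CDT1 kept their log2 change within 1.5 times whichever well was left out, and the other 18 did not. LIG1, RRM1, E2F1, E2F2, CHAF1B and POLE changed sign. Leaving out single wells does not show a dependence on the replicate sets. CDT1 was at -0.033 within replicates 1 and 2 and at -0.26 within replicates 3 and 4. That difference had an adjusted p of 0.893 in edgeR's interaction test. Without stretch replicate 3, MCM7 was at -0.036, MCM6 at -0.027, RFC4 at -0.0020, TYMS at -0.014, RRM2 at -0.028 and UHRF1 at -0.12, all nearer 0. Without stretch replicate 1, MCM7 was at -0.14, MCM6 at -0.15, RFC4 at -0.11, TYMS at -0.19, GINS4 at -0.20 and RRM2 at -0.094, all farther from 0, while GINS3 was nearer, at -0.11. Without control replicate 1, CHAF1A was at -0.11, GINS4 at -0.055, POLD3 at -0.0088, RPA1 at -0.024 and RPA3 at -0.011.

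For scale, 24 genes of G2 and mitosis, listed separately, had a median log2 change of -0.21 after stretch without the block, with all 24 lower. In edgeR, 0 passed the threshold without the block (0% of all tested genes) and 3 with it (0.7%). At the unadjusted threshold 14 were lower without the block (1.76% of all genes). By pair, the median of these 24 was -0.10, -0.20, -0.44 and -0.081 for replicates 1 to 4. A list of 47 further tested genes of replication and the G1/S switch had a median of -0.038, with 34 lower and 13 higher and 0 past the threshold in either edgeR fit. The difference between these lists was not tested. Summed over the 49 genes, the replication transcripts took between 5088 and 5952 CPM in control wells and between 4782 and 5959 CPM in stretch wells. Stretch replicates 3 and 4 (4782 and 4954 CPM) lay below every control well, and the sum was lower after stretch in 3 of 4 same-numbered pairs and nearly equal in replicate 1 (5952 and 5959 CPM).

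**Figure D2:**
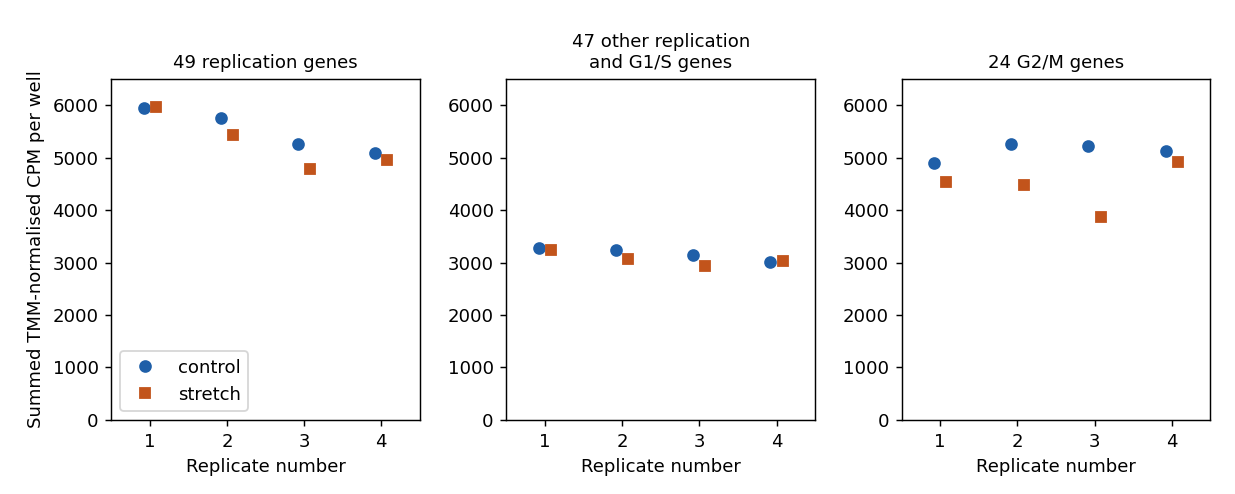
Summed TMM-normalised CPM per well of the 49 replication genes, of 47 other replication and G1/S genes and of 24 G2/M genes, by replicate number, with circles for control wells and squares for stretch wells. The replication genes lie between 5432 and 5959 CPM in replicates 1 and 2 and between 4782 and 5260 CPM in replicates 3 and 4 of both groups.

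The largest differences among these genes ran between replicate numbers. The second comparison set replicates 3 and 4 of both groups against replicates 1 and 2, with a term for stretch. This division was first noticed on a principal component of these same 8 wells, and the labels give no difference between the numbers, so its p-values describe these wells and are not independent evidence. The fit also treats the 2 wells of a number as independent, although same-numbered wells deviated together, and only 2 numbers stand on each side. Of the 49 genes, 36 passed the adjusted threshold (edgeR; 18.6% of all tested genes), of which 34 were lower and 2 higher in replicates 3 and 4 (8.52% and 10.1% of all genes). The difference was negative in 44 of the 49 (51.3% of all genes), with a median of -0.22 on the log2 scale, a range from -0.62 to 0.20, and a median over all genes of -0.0050. In 28 of the 49 genes all 4 wells numbered 3 and 4 lay below all 4 wells numbered 1 and 2, a separation found in 9.93% of all genes, and in 2 they lay above (10.4%). With 1 well left out at a time, 27 of the 36 passed in each of the 8 fits. The other 9 did not pass in at least 1 of them: GINS3, RRM1 and FEN1 (each past in 2 of 8 fits), RFC1, RFC3 and RRM2 (3 of 8), CHAF1A (4 of 8), CDC6 (6 of 8) and POLD3 (7 of 8).

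Each group showed the division in its own wells. Within the 4 control wells the median log2 difference was -0.24, and 23 of 49 genes were called lower and 1 higher (edgeR, 2 wells against 2, with 4.27% and 6.01% of all genes). Within the 4 stretch wells it was -0.25, and 20 were called lower and 0 higher (1.96% and 2.49% of all genes), and at the unadjusted threshold 1 gene, GINS3, was higher (9.8% of all genes). In 40 of the 49 genes the difference was negative in both groups, as it was in 35.9% of all genes, and in 3 it was positive in both (33.9%). These separate fits were added after the data were seen. They reuse the wells on which the division was noticed, so they describe it and are not independent evidence for it. An interaction of stretch with the replicate division passed for 0 of 49 genes and for 0 of all 14571 (0%, edgeR), and at the unadjusted threshold for 1 of 49 and for 5.72% of all genes.

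**Figure D3:**
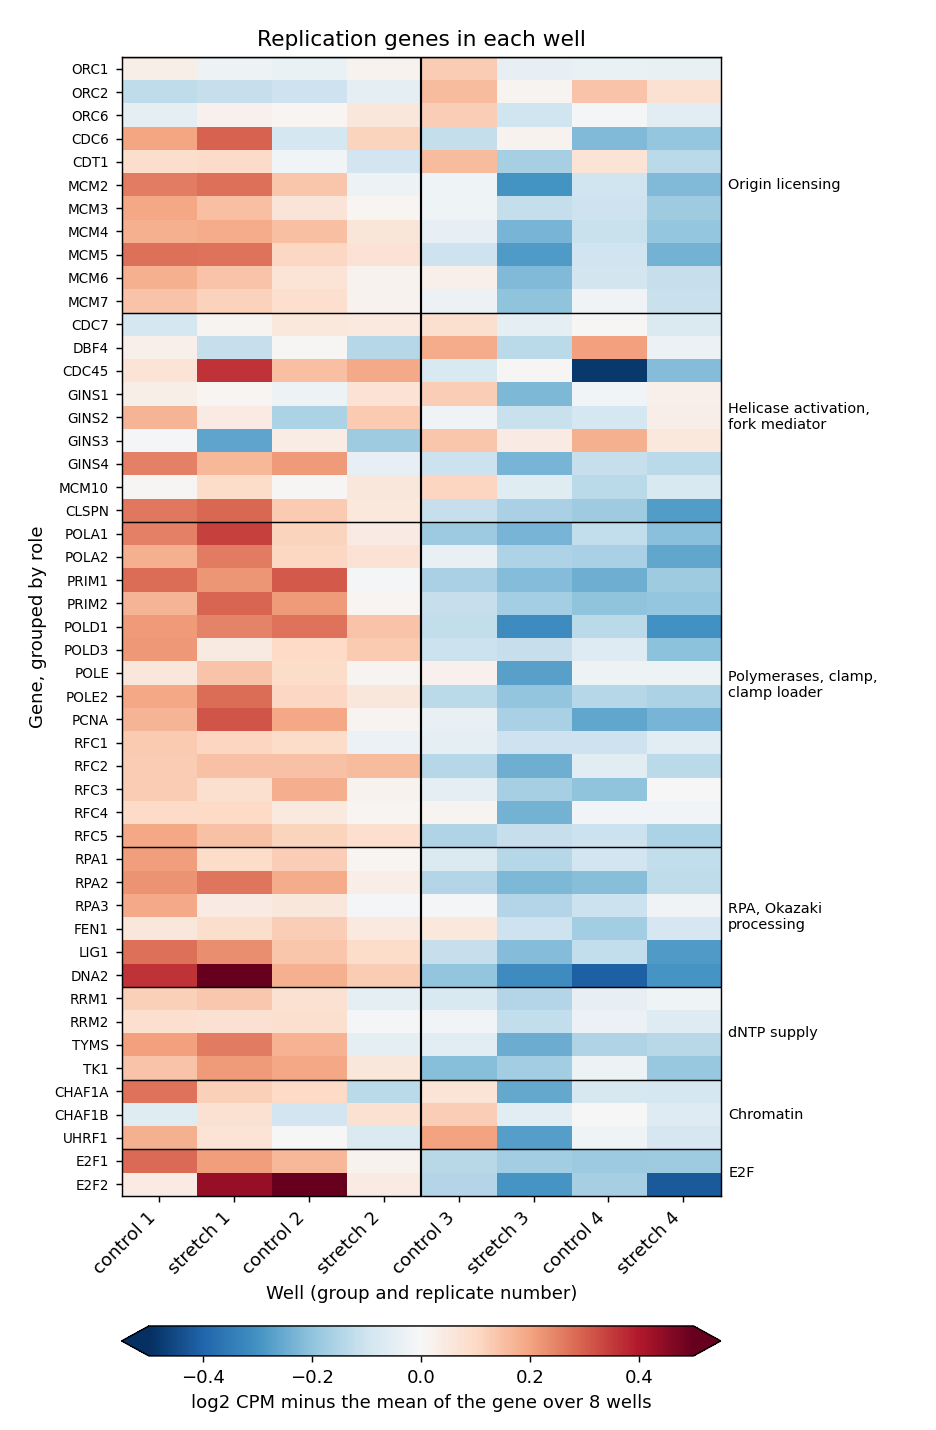
Level of each of the 49 replication genes in each well, as log2 CPM minus the mean of that gene over the 8 wells, with genes grouped by role and wells ordered by replicate number (colours saturate beyond ±0.5). Most rows are above their mean in the 4 wells left of the vertical line (replicates 1 and 2) and below it in the 4 wells to the right (replicates 3 and 4), whereas ORC2 and GINS3 show the opposite.

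In the replicate division, of 14 polymerase, clamp and clamp loader genes, 14 were lower in replicates 3 and 4 and 12 passed, with a median log2 difference of -0.30, and the remaining POLE and RFC4 reached 0.0544 and 0.0973 (edgeR, adjusted p). POLD1, the catalytic subunit of polymerase delta on chromosome 1 (106967996 to 106996721), had the smallest p of the 49. It had 42.0, 43.7, 33.2 and 32.9 CPM in control replicates 1 to 4 and 43.0, 39.9, 29.1 and 29.3 CPM in stretch replicates 1 to 4. Its wells numbered 1 and 2 lay between 39.9 and 43.7 CPM and those numbered 3 and 4 between 29.1 and 33.2 CPM, with a log2 difference of -0.44 ± 0.057 (SE, edgeR adjusted p = 1.41e-05). PRIM1, the catalytic primase that starts each new strand, on chromosome 10 (1306679 to 1330830), had 87.1, 88.6, 64.1 and 60.5 CPM in control replicates 1 to 4 and 83.5, 71.4, 61.6 and 63.3 CPM in stretch replicates 1 to 4. Its lowest well of replicates 1 and 2 was stretch replicate 2, still above all wells numbered 3 and 4, and the log2 difference was -0.40 ± 0.055 (SE, edgeR adjusted p = 2.58e-05). PCNA differed by -0.35 ± 0.061 (SE) and the polymerase alpha subunit POLA1 by -0.38 ± 0.057 (SE, edgeR adjusted p = 0.000652 and 0.000111).

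Okazaki fragment processing held the largest difference. DNA2, which trims long flaps, lies on chromosome 4 (20343723 to 20401576) and had 34.0, 30.0, 23.1 and 20.0 CPM in control replicates 1 to 4 and 38.7, 28.9, 21.3 and 21.6 CPM in stretch replicates 1 to 4. No well numbered 3 or 4 came within 5 CPM of any well numbered 1 or 2, and the log2 difference was -0.62 ± 0.083 (SE, edgeR adjusted p = 5.14e-05). For the same gene the log2 change with stretch was 0.047 ± 0.23 (SE), the widest error among the 49 without the block, and 0.036 ± 0.065 (SE) with it. LIG1, on chromosome 1 (108812276 to 108850757), whose well values are given above, differed by -0.37 ± 0.049 (SE, edgeR adjusted p = 1.88e-05) with no overlap. Of the 6 genes in this role, 5 passed, all lower, and RPA3 did not (edgeR, adjusted p = 0.0544).

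Among the licensing genes, 7 of 11 were called lower and 1 higher. All 6 MCM ring genes were called lower in replicates 3 and 4, with log2 differences of -0.33 for MCM2, -0.21 for MCM3, -0.29 for MCM4, -0.36 for MCM5, -0.20 for MCM6 and -0.18 for MCM7. MCM5, on chromosome 10 (29722609 to 29742263), had 181, 160.3, 139 and 139 CPM in control replicates 1 to 4 and 180.2, 157, 123 and 127 CPM in stretch replicates 1 to 4 (edgeR, adjusted p = 4.78e-05). It stood above 156 CPM in every well numbered 1 or 2 and below 140 CPM in every other well. CDC6 had a difference of -0.26 ± 0.066 (SE, edgeR adjusted p = 0.0125, and 0.0544 at most with 1 well left out, lost without control replicate 4 or stretch replicate 1). ORC2, an ORC core subunit on chromosome 37 (9968534 to 10014278), was higher in replicates 3 and 4, with 79.3, 80.7, 96.8 and 95.7 CPM in control replicates 1 to 4 and 79.9, 83.8, 87.5 and 91.4 CPM in stretch replicates 1 to 4 and no overlap, a log2 difference of 0.20 ± 0.047 (SE, edgeR adjusted p = 0.00518). It overlaps NIF3L1 on the opposite strand. ORC1, ORC6 and CDT1 had log2 differences of 0.0084 ± 0.059 (SE), -0.019 ± 0.056 (SE) and -0.039 ± 0.064 (SE), and none of these passed.

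The helicase activators differed in direction. CDC45, GINS4 and CLSPN were lower in replicates 3 and 4, with log2 differences of -0.38 ± 0.080 (SE), -0.30 ± 0.053 (SE) and -0.37 ± 0.056 (SE, edgeR adjusted p = 0.005, 0.000374 and 8.19e-05). GINS3, a subunit of the same complex as GINS4, was higher by 0.20 ± 0.066 (SE, edgeR adjusted p = 0.0333), a call lost without control replicate 1 or 4 or without any 1 of the stretch wells. Over all 8 fits with 1 well left out, 2 of which kept the call, its edgeR adjusted p ran from 0.0407 to 0.135. DBF4 was also on the higher side, 0.12 ± 0.051 (SE), without passing (adjusted p = 0.116), and the controls numbered 3 and 4 were its highest wells. CDC7, GINS1, GINS2 and MCM10 had log2 differences between -0.095 and -0.014 and did not pass.

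**Figure D4:**
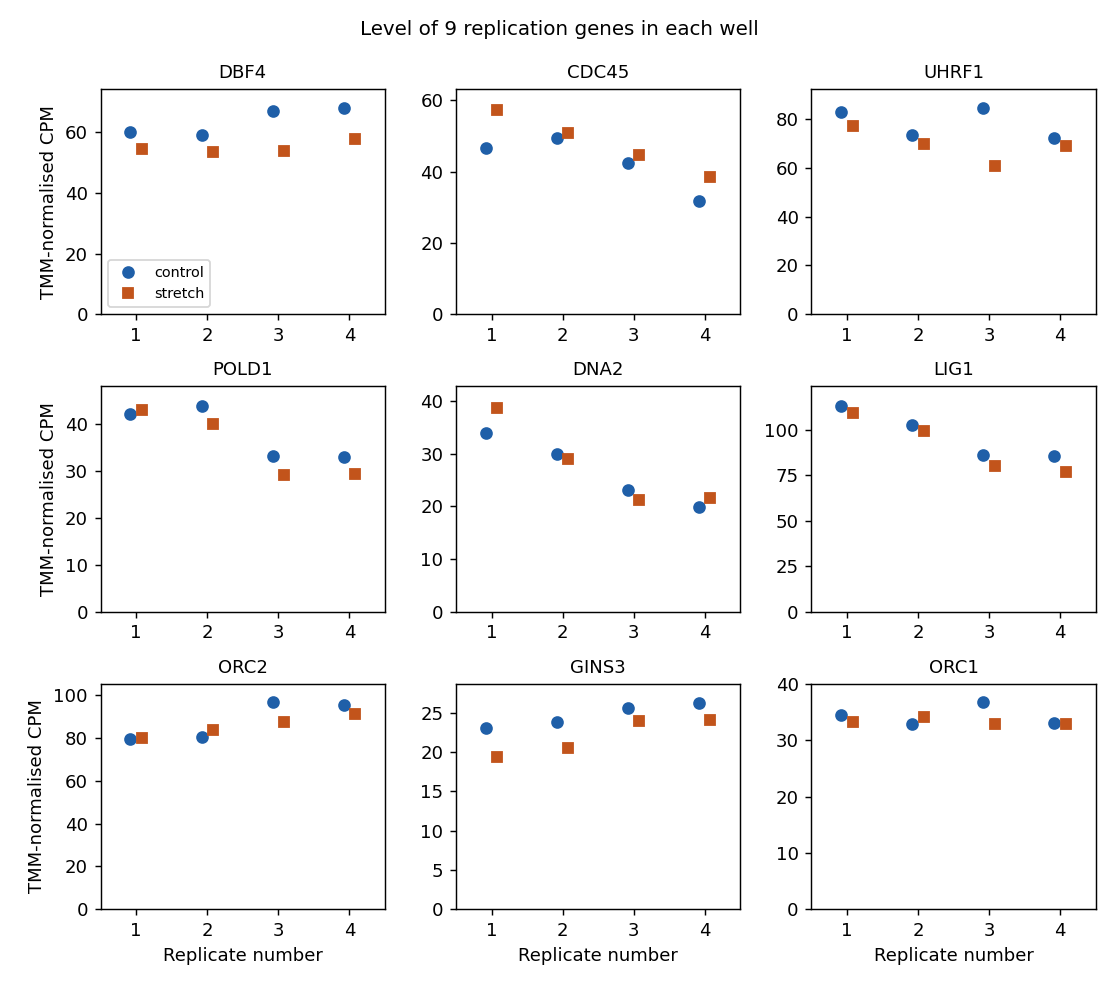
TMM-normalised CPM of 9 replication genes in each well, by replicate number, with circles for control and squares for stretch wells and axes starting at 0. DBF4 is lower in every stretch well than in any control well, POLD1, DNA2 and LIG1 separate replicates 1 and 2 from 3 and 4 in both groups, and ORC2 and GINS3 do so in the opposite direction.

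All 4 genes of deoxynucleotide supply were called lower in replicates 3 and 4. TK1 had 195, 202, 153 and 174 CPM in control replicates 1 to 4 and 205, 184, 157 and 155 CPM in stretch replicates 1 to 4, a log2 difference of -0.30 ± 0.047 (SE, edgeR adjusted p = 0.000103), and TYMS had a log2 difference of -0.30 ± 0.055 (SE, edgeR adjusted p = 0.000741). The reductase genes RRM1 and RRM2 differed less, by -0.14 ± 0.045 (SE) and -0.12 ± 0.039 (SE, edgeR adjusted p = 0.0286 and 0.0371), and both calls were lost without control replicate 1, 2 or 4 or stretch replicate 1 or 3, that of RRM1 also without control replicate 3. Both E2F genes were lower and without overlap, E2F1 at -0.34 ± 0.062 (SE) and E2F2 at -0.53 ± 0.13 (SE, edgeR adjusted p = 0.000505 and 0.00612). Of the chromatin genes, CHAF1A was just past the threshold at -0.18 ± 0.062 (SE, edgeR adjusted p = 0.0496), and was lost without control replicate 1 or 4 or stretch replicate 1 or 3 (0.194 at most), while UHRF1 at -0.086 ± 0.065 (SE) and CHAF1B at 0.0012 ± 0.064 (SE) did not pass.

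The G2/M genes had no such shift in their median. Of the 24 G2/M genes, 3 were called lower and 0 higher in replicates 3 and 4 (8.52% and 10.1% of all tested genes), with a median log2 difference of 0.013. Of the 47 other replication and G1/S genes, 15 were called lower and 2 higher, against the same shares of all genes, with a median of -0.094. These lists are set beside the replication genes as values, and the difference between lists was not tested. The summed epithelial markers moved with the division too, from between 5953 and 6364 CPM in replicates 1 and 2 to between 6406 and 6729 CPM in replicates 3 and 4, and their part in the result was not tested. Total counts overlapped, at 27047358 to 30655036 in replicates 1 and 2 and 28912414 to 32478887 in replicates 3 and 4. Exons of 15 of the 49 genes overlap a gene on the opposite strand, and the strand setting of the counting is not given in the sources used here. Of the 34 genes without such an overlap, 28 were called lower in replicates 3 and 4, against 34 of all 49 (8.52% of all tested genes). The share called lower was thus smaller among the 15 with an overlap, and the part of the overlap was not tested.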

How the data were processed

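RNA from 8 wells was sequenced as stranded, polyA-selected libraries, per the labels' protocols. The values deposited by the authors are raw counts per gene over exons. The submitters' processing notes name FastQC 0.11.8, Trim Galore 0.6.5, STAR 2.7.3a and featureCounts of Subread. The genome build, strand setting and handling of shared reads are not given in the sources used here. The start and end of all 49 genes in the table matched RefSeq's dog assembly UU_Cfam_GSD_1.0, whose chromosome names are printed. The table had 0 columns belonging to no sample. No sequences were used here.

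Counts were filtered with filterByExpr (minimum count 10, minimum total 15), scaled with TMM factors and tested with glmQLFit (robust) and glmQLFTest of edgeR 4.0.16 in R 4.3.3, two-sided, with Benjamini-Hochberg adjustment over 14571 genes and a threshold of 0.05. SE is the log2 change divided by the root of the F statistic. Same-numbered wells were taken as pairs because their deviations from the group means correlated across genes by 0.108 to 0.328 (log2 CPM, prior count 2), although only 1 of 4 control wells correlated best with its own number and the labels do not say what a number shares. The edgeR stretch fit without a block was tried on counts simulated with stretch changes and no difference between replicate numbers. That simulation did not cover the other fits.

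The alternatives were DESeq2 1.42.0, limma-voom (limma 3.58.1), other scalings and count filters, blocks, the separate replicate sets and omission of each well. Figures were drawn with matplotlib 3.10.9. Genes named in full were those past the threshold with stretch, the 3 of each role with the smallest p, the 5 with the smallest p in the replicate division, and the highest and lowest length-scaled levels. CDC6, CDC7, CDC45, the ORC genes, PCNA, POLA1, TK1 and other members described beyond this rule were chosen after their values were seen. The genes and lists were chosen with earlier results of these data known.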

Additional observations from a re-analysis of the deposited data

How the results depend on the processing

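For stretch, 0 replication genes passed in edgeR and in each of the other settings run, DESeq2 and limma-voom included. The count over all genes was 0 without the block, 102 with the replicate block, 58 with the block of 2 levels, 40 in DESeq2, 145 in DESeq2 with the replicate block, 11 without a count filter, 51 within replicates 1 and 2, 25 within replicates 3 and 4, and from 0 to 12 with 1 well left out (12 without control replicate 3). The median log2 change of the replication genes ran from -0.13 to -0.0099 with 1 well left out and was -0.056 with the replicate block, which changed no call among them. With 1 well left out, some small stretch changes turned sign: LIG1 ran from -0.18 to 0.0016, E2F1 from -0.15 to 0.022, E2F2 from -0.30 to 0.068, POLE from -0.12 to 0.0092, RRM1 from -0.088 to 0.0056 and CHAF1B from -0.0076 to 0.063. POLE was 0.0054 within replicates 1 and 2, and CHAF1B was -0.11 within replicates 3 and 4. The cause was not tested.

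In the replicate division, between 35 and 38 replication genes passed over the tests, scalings and filters run, and 28 to 36 with 1 well left out, of which 27 to 35 were lower and 1 to 2 higher. Within the 4 control wells 1498 genes passed, 24 of them replication genes (23 lower, 1 higher), and within the 4 stretch wells 649 passed, 20 of them replication genes (20 lower, 0 higher). Over all genes, 2706 passed, and between 1721 and 2816 with 1 well left out (1721 without stretch replicate 1 and 1725 without control replicate 1). Every replication gene had at least 145 counts in each well, and 4 wells a group limit the precision.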

Other observations

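The E2F family, examined after the values were seen, was not uniform across the replicate division. Besides E2F1 and E2F2, the repressors E2F7 and E2F8 were lower in replicates 3 and 4, with log2 differences of -0.46 ± 0.063 (SE) and -0.39 ± 0.083 (SE, edgeR adjusted p = 2.45e-05 and 0.00183). E2F4 and E2F5, which act mainly as repressors in resting cells, were higher, by 0.27 ± 0.054 (SE) and 0.34 ± 0.064 (SE, edgeR adjusted p = 0.000984 and 0.000684). Exons of E2F4, E2F5 and E2F8 each overlap 1 gene on the opposite strand, and those of E2F7 overlap 0. E2F3 and E2F6 did not pass. With stretch, none of the 8 E2F genes passed in either edgeR fit.

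Among cyclin genes of the S-phase kinases, also chosen after their values were seen, CCNE2 was lower in replicates 3 and 4, from 19.2 ± 2.26 to 13.6 ± 1.59 CPM (SD over 4 wells, edgeR adjusted p = 0.00108, with 2 opposite-strand genes overlapping its exons), while CCNE1 and CCNA2 had log2 differences of 0.076 ± 0.080 (SE) and -0.032 ± 0.055 (SE) and did not pass. GMNN, the inhibitor of CDT1, had a log2 difference of -0.31 ± 0.052 (SE, edgeR adjusted p = 0.000195), and CDT1, at -0.039 ± 0.064 (SE), did not pass.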
